A study of Mus musculus with 12 samples.

Results

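The 9 genes described here make, carry, break down or sense retinoic acid: the vitamin A receptor Stra6, the binding protein Crabp2, the enzymes Aldh1a1, Aldh1a3 and Dhrs3, the degrading enzymes Cyp26a1 and Cyp26b1, and the nuclear receptors Rarb and Rarg. They were taken by symbol from a count table of 55367 genes. The list was chosen by the knock-out against wild type values of these libraries, because Cyp26a1 was higher in knock-out in both organoid lines, so that comparison is given as a description with no test. All 9 were found in the table and all 9 passed the filter on low counts.

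RNA was sequenced from 12 libraries of mouse tongue organoids, which are epithelial tissues grown in culture. They belong to 2 lines, labelled CVP organoid and FoP organoid, from the circumvallate and the foliate papillae, the taste papillae at the back of the tongue. Each line has 2 wild type libraries and 4 libraries labelled Foxe1 knock-out, from 2 clones in duplicate (2.9 and 2.10 in CVP, 2.4 and 2.5 in FoP), and the series asks what becomes of tongue organoids without the forkhead transcription factor Foxe1. The labels give one treatment, genetic modification, name no wild type clone, and do not say how Foxe1 was altered, so loss of Foxe1 and derivation of a clone cannot be told apart. Duplicates share a culture label, and p-values therefore measure the spread between these libraries, part of which may be technical. No age, strain or added retinoid is given in the sources used here.

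Retinol enters cells through Stra6, which takes it from its carrier in the blood. Retinol dehydrogenases oxidize it to retinaldehyde, the reductase Dhrs3 turns retinaldehyde back into retinol, and the Aldh1a enzymes oxidize retinaldehyde irreversibly to retinoic acid. Crabp2 carries retinoic acid to the nucleus, where receptors of the Rar family, paired with Rxr partners, bind direct repeats in the DNA and switch between corepressors and coactivators. The Cyp26 enzymes hydroxylate and so clear retinoic acid. Cyp26a1, Rarb, Dhrs3, Stra6 and Crabp2 are themselves known as genes that retinoic acid induces in many cell types, and in epithelia retinoids are known for restraining keratinization.

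Of the 9 genes, 7 had a RefSeq promoter window and 2 of these, Cyp26a1 and Rarb, held a direct repeat with a spacer of 5 bases (DR5), the classical binding element of retinoic acid receptors. Both windows are shown because these genes moved in opposite directions in knock-out. Each run is the 250 bases before the transcript start that the RefSeq window (GRCm38.p6) is built on, 5′ to 3′ on the gene's strand, with the repeated hexamers in capitals. For Rarb this start lies inside the gene as GENCODE M21 bounds it, so it is one of several starts, and the counts of Rarb below cover the whole gene and cannot be assigned to it. The Cyp26a1 window ends just inside the GENCODE start of that gene. The Cyp26a1 window lies at chr19:37697558-37697807 on the plus strand, the Rarb window at chr14:16575477-16575726 on the minus strand.
Cyp26a1: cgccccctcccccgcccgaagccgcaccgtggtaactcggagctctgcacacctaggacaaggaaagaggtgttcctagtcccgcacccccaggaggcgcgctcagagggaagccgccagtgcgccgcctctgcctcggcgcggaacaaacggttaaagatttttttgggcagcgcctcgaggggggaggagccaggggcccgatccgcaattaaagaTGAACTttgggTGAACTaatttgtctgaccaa
Rarb: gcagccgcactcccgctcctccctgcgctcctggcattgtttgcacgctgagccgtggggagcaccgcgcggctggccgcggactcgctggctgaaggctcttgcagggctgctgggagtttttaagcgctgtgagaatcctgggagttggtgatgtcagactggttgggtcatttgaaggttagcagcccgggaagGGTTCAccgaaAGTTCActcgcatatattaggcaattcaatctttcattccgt

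Read on its own strand, the Cyp26a1 element is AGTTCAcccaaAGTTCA at -32 to -16 from that start and runs on the strand opposite to the gene, while the Rarb element is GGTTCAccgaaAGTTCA at -53 to -37 on the strand of the gene. The hexamers searched on both strands were AGGTCA and its variants (AGTTCA as one, GGGTCA as another, GGTTCA as the last), in direct repeats with spacers of 1, 2 and 5 bases, whose windows can overlap in a longer array. A DR5 of these letters was present in 29 of 32851 promoter windows (0.0883%), a spacer of 1 base in 54 (0.164%) and a spacer of 2 bases in 57 (0.174%). None of the windows of Cyp26b1, Rarg, Stra6, Dhrs3 or Aldh1a1 held these repeats. A match is a match of letters only, since binding was not measured.

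The libraries held 59.3 to 73.6 M counts, with 21421 to 22602 genes detected, and 17076 genes were tested. Foxe1 did not separate the groups: clones 2.9 and 2.4 stood at 23.2 ± 0.703 and 21.2 ± 1.66 CPM, above the 15.6 ± 0.366 and 16.2 ± 0.235 CPM of their wild types, and clones 2.10 and 2.5 at 7.90 ± 0.796 and 11.3 ± 0.156 CPM, below them (SD, n = 2 for each). CPM are counts scaled to library sizes after TMM normalization. Knock-out below stands for the libraries labelled so. All 6 epithelial markers were detected, with sums of 9178 to 9577 CPM in CVP wild type, 12205 to 14770 in CVP knock-out, 10883 to 10938 in FoP wild type and 10676 to 13444 in FoP knock-out. These sums are mostly keratin, and the markers split in CVP, where 2 rose and 2 fell (66.7% called, beside 46.4% of all genes). From CVP wild type to knock-out, mean Krt5 went from 3949 to 5919 CPM and Krt14 from 1782 to 4615. Epcam went from 1573 to 1087 CPM and Trp63 from 519 to 410. In FoP 1 of the 6 passed, as a rise (16.7% called, beside 28.8% of all genes). Mean Trp63 went from 424 to 565 CPM there, opposite to CVP. Of other cell types, 7 fibroblast markers summed to 3.95 to 9.31 CPM with Lum at 0 in all libraries. Of 5 tested, 1 rose and 1 fell in each line (40.0% called, beside 46.4% of all genes in CVP and 28.8% in FoP). Mean Pdgfra went from 1.06 to 4.40 CPM in CVP and from 1.11 to 3.18 in FoP. Dcn went from 1.37 to 0.318 CPM in CVP and from 1.16 to 0.317 in FoP. The 7 immune markers summed to 30.7 to 43.2 CPM in CVP wild type and 1.43 to 2.37 in knock-out. In FoP they summed to 17.3 in both wild type libraries and 3.78 to 5.04 in knock-out. These immune sums were nearly all Cd68 and Lyz2, the 2 of the 7 with enough counts to test. Mean Cd68 went from 13.9 to 1.99 CPM in CVP and from 13.1 to 4.42 in FoP. Mean Lyz2 went from 23.0 CPM to 0 in CVP and from 4.14 to 0 in FoP. The other immune markers were at 0.131 CPM or less in every library, and the pan-leukocyte gene Ptprc was at 0 in all. Endothelial markers summed to 0.996 to 1.61 CPM in CVP wild type and 1.76 to 3.10 in knock-out, and to 0.841 to 0.930 and 2.09 to 3.24 in FoP. Their members did not move together. Mean Pecam1 went from 0.588 to 1.95 CPM in CVP and from 0.331 to 2.04 in FoP. Vwf, the other tested marker, went from 0.701 to 0.441 CPM in CVP and from 0.540 to 0.463 in FoP. Cdh5, Kdr and Tie1 were at 0.0347 CPM or less in every library. Nerve and glia markers went from 1.57 to 2.06 CPM in CVP wild type to 2.30 to 6.47 in knock-out, where 3 of 4 tested markers rose, and in FoP from 2.28 to 2.96 to 1.70 to 2.64. Skeletal muscle markers summed to 1.16 CPM or less. The part of these markers in the results below was not tested, and in bulk RNA fewer cells of a type and less RNA per cell cannot be told apart.

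Compared per length of exon, the 9 genes fell into 2 ranges. Over the 12 libraries Crabp2 averaged 117 CPM per kb, Aldh1a3 103, Stra6 87.7, Dhrs3 76.4 and Rarg 46.8. Cyp26b1 averaged 3.17 CPM per kb, Rarb 3.04, Cyp26a1 2.75 and Aldh1a1 1.52. The gap between the lowest library of Rarg (39.5) and the highest of Cyp26b1 (4.41) was the only one between neighbours in this order, since the ranges of all other neighbours overlapped. The abundant dehydrogenase was thus Aldh1a3 and the abundant receptor Rarg, in every library.

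**Figure D1:**
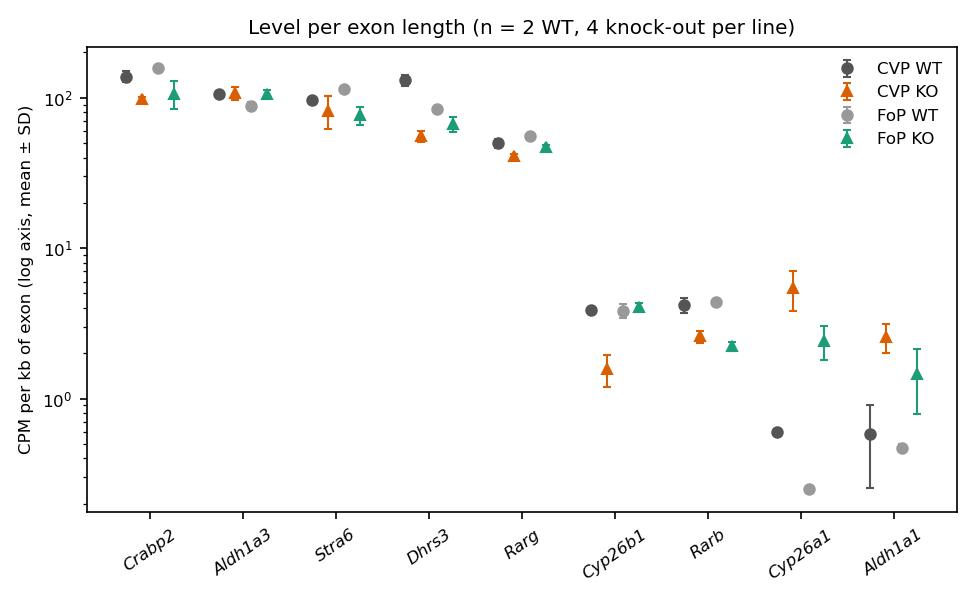
Mean level per kb of exon for each gene on a log axis, with bars of 1 SD (2 wild type and 4 knock-out libraries per line; bars smaller than the symbol are hidden). Crabp2, Aldh1a3, Stra6, Dhrs3 and Rarg lie above 39.5 CPM per kb in every library, and in the CVP line the order of Cyp26a1 (0.603 in wild type, 5.42 in knock-out) and Cyp26b1 (3.87 and 1.58) is exchanged.

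In knock-out against wild type, Cyp26a1 and Aldh1a1 were higher in both lines, and Rarb, Rarg, Crabp2 and Dhrs3 were lower in both. In CVP, 2 of the 9 genes had all knock-out libraries above both wild type libraries, 5 had all below and 2 overlapped; 61.7% of all tested genes had groups that did not overlap (31.7% higher, 30.0% lower). In FoP, 3 lay above, 5 below and 1 overlapped, beside 49.7% of all tested genes (23.9% higher, 25.8% lower). The median log2 fold change of the 9 was -0.28 in CVP and -0.24 in FoP, beside 0.03 and 0.01 over all tested genes. Since these contrasts chose the list, nothing is read from the counts. The 2 lines share no control library.

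**Figure D2:**
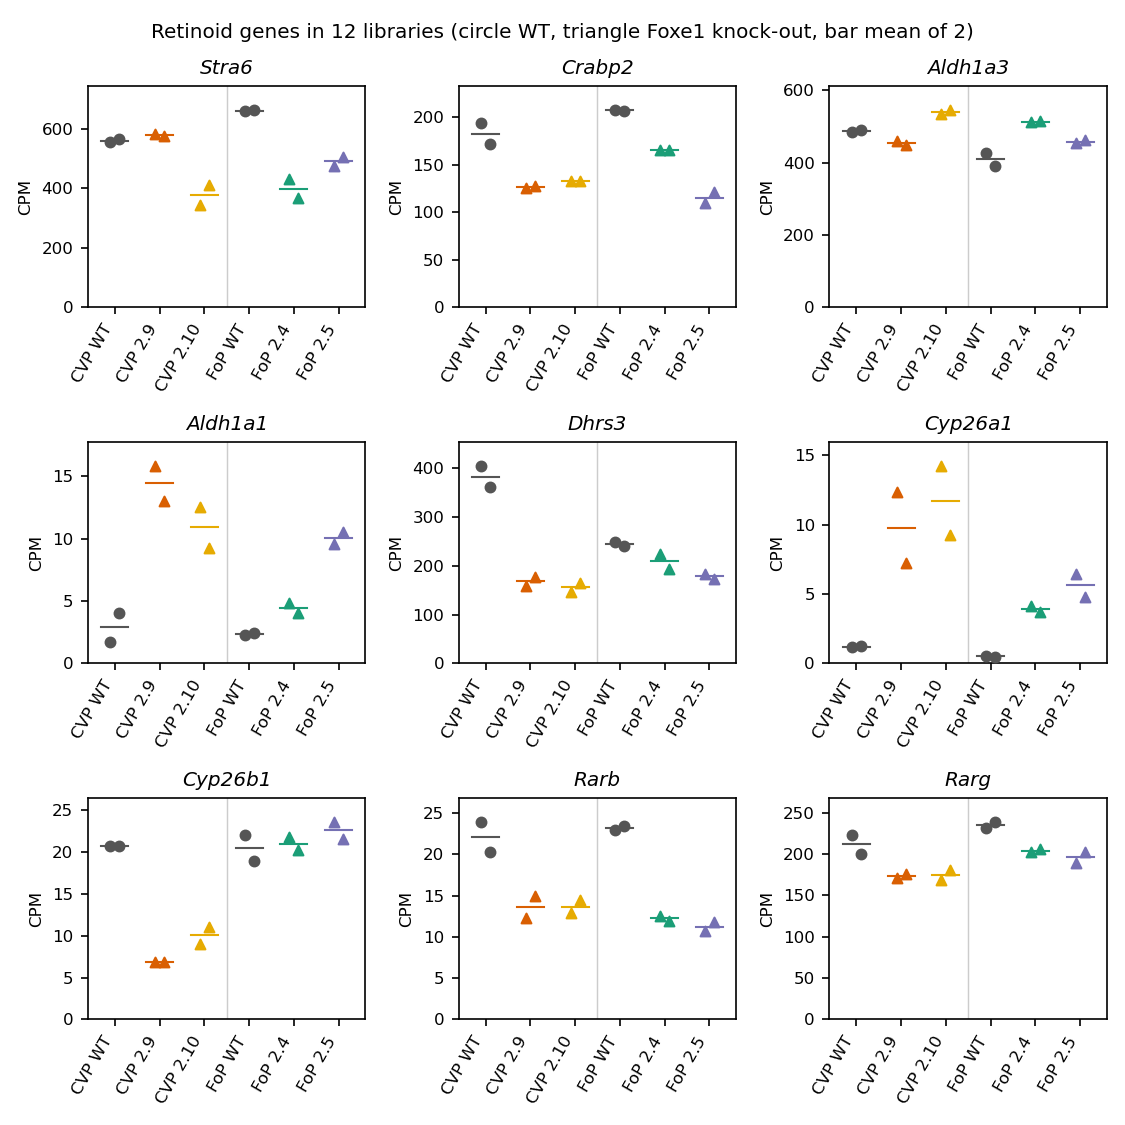
CPM of each gene in the 12 libraries by culture; circles are wild type, triangles knock-out, and the short lines are means of 2 libraries. Cyp26a1 and Aldh1a1 stand higher in all 4 clones than in wild type, Rarb and Rarg lower, and Cyp26b1 is at 6.83 to 11.1 CPM in the CVP clones and at 19.0 to 23.6 in all other libraries.

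Cyp26a1 (chromosome 19, 37697798 to 37701536, plus strand, GRCm38, protein-coding), the enzyme best known for clearing retinoic acid in the embryo, was at 1.16 and 1.24 CPM in CVP wild type, at 12.3 and 7.21 in clone 2.9 and at 14.2 and 9.22 in clone 2.10. The FoP values were 0.509 and 0.485 CPM in wild type, 4.16 and 3.72 in clone 2.4 and 6.45 and 4.79 in clone 2.5. The groups did not overlap in either line. These levels rest on 79 and 89 counts in CVP wild type and 35 and 30 in FoP wild type, against 240 to 946 in the knock-out libraries. The knock-out level was 8.98-fold the wild type level in CVP (log2 fold change 3.17 ± 0.31, SE) and 9.58-fold in FoP (3.26 ± 0.33), a difference between the lines of 0.09 ± 0.40. Clones of one line did not differ past the test (2.10 against 2.9, 0.26 ± 0.25, adjusted p = 0.697; 2.5 against 2.4, 0.51 ± 0.26, adjusted p = 0.292).

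Cyp26b1 (chromosome 6, 84571414 to 84593908, minus strand, GRCm38, protein-coding), the second retinoic acid hydroxylase, did not follow Cyp26a1. It was at 20.8 and 20.7 CPM in CVP wild type, 6.84 and 6.83 in clone 2.9 and 9.05 and 11.1 in clone 2.10. FoP wild type held 22.1 and 19.0 CPM, beside 21.8 and 20.2 in clone 2.4 and 23.6 and 21.6 in clone 2.5. CVP knock-out lay below its wild type by 2.45-fold (log2 -1.29 ± 0.16), and FoP groups overlapped (0.09 ± 0.16). Per kb of exon, Cyp26a1 in CVP was at 0.603 ± 0.0280 CPM in wild type and 5.42 ± 1.59 in knock-out beside 3.87 ± 0.00366 and 1.58 ± 0.382 for Cyp26b1 (SD, n = 2 and 4). In FoP the 2 stood at 0.251 ± 0.00828 and 2.41 ± 0.604 for Cyp26a1 and at 3.83 ± 0.407 and 4.07 ± 0.261 for Cyp26b1. The higher of the 2 was therefore Cyp26b1 in both wild types and in FoP knock-out, and Cyp26a1 in CVP knock-out.

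Aldh1a3 (chromosome 7, 66390890 to 66427517, minus strand, GRCm38, protein-coding), which makes retinoic acid, ranged from 392 to 547 CPM over all libraries. It was at 484 and 490 CPM in CVP wild type, 460 and 448 in clone 2.9 and 535 and 547 in clone 2.10, so that wild type lay between the clones (log2 0.03 ± 0.09). The FoP wild type stood at 427 and 392 CPM and every knock-out library above it, with 513 and 515 in clone 2.4 and 455 and 462 in clone 2.5 (0.25 ± 0.09).

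Aldh1a1 (chromosome 19, 20492715 to 20643465, plus strand, GRCm38, protein-coding), a dehydrogenase of the same step, was low and higher in knock-out of both lines. It was at 1.73 and 4.03 CPM in CVP wild type, 15.8 and 13.0 in clone 2.9 and 12.6 and 9.28 in clone 2.10, 4.40-fold higher (log2 2.14 ± 0.48). In the FoP line it stood at 2.24 and 2.43 CPM in wild type, 4.82 and 3.99 in clone 2.4 and 9.57 and 10.6 in clone 2.5, 3.10-fold higher (1.63 ± 0.48). The groups did not overlap. The CVP value hangs on which wild type library is used (1.65 without the first, 2.87 without the second), and the FoP value on the clone (0.92 without clone 2.5, 2.11 without clone 2.4). Its close paralog Aldh1a7, on the same chromosome (20692953 to 20727562, minus strand) and looked up after the values were seen, went the other way: 10.8 to 12.3 CPM in CVP wild type against 1.98 to 7.58 in knock-out, and 10.9 in both FoP wild type libraries against 3.81 to 5.05. The sources used here do not tell how reads matching both genes were counted, so the level of Aldh1a1 is uncertain.

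Dhrs3 (chromosome 4, 144892827 to 144928209, plus strand, GRCm38, protein-coding), which returns retinaldehyde to retinol, was at 406 and 361 CPM in CVP wild type, 158 and 178 in clone 2.9 and 146 and 165 in clone 2.10. The FoP line held 250 and 242 CPM in wild type, 225 and 195 in clone 2.4 and 184 and 174 in clone 2.5. Knock-out was below wild type in every library of both lines, by 2.37-fold in CVP (log2 -1.24 ± 0.09) and 1.26-fold in FoP (-0.34 ± 0.10).

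Stra6 (chromosome 9, 58063788 to 58153996, plus strand, GRCm38, protein-coding), the retinol importer, was at 555 and 566 CPM in CVP wild type and in the same range in clone 2.9 (581 and 576), but at 346 and 410 in clone 2.10. FoP levels were 658 and 664 CPM in wild type, 430 and 367 in clone 2.4 and 476 and 507 in clone 2.5, all below wild type. The knock-out log2 fold change was -0.23 ± 0.20 in CVP, where the groups overlapped, and -0.57 ± 0.20 in FoP. Ccdc33, which overlaps Stra6 on the opposite strand, was at 0.972 to 8.20 CPM in all libraries, so its counts are small beside those of Stra6.

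Crabp2 (chromosome 3, 87948666 to 87953376, plus strand, GRCm38, protein-coding), which hands retinoic acid to its receptors, was at 193 and 172 CPM in CVP wild type and at 125, 127, 132 and 133 in the knock-out libraries. In FoP the levels were 208 and 206 CPM in wild type, 165 in both libraries of clone 2.4 and 109 and 121 in clone 2.5. Knock-out lay below wild type in every library (log2 -0.50 ± 0.15 in CVP, -0.56 ± 0.15 in FoP).

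Rarb (chromosome 14, 16430839 to 16819156, minus strand, GRCm38, protein-coding), the receptor gene with the DR5 printed above at an internal start, was at 24.0 and 20.3 CPM in CVP wild type, 12.3 and 15.0 in clone 2.9 and 12.9 and 14.4 in clone 2.10. In FoP it was at 23.0 and 23.5 CPM in wild type, 12.6 and 11.9 in clone 2.4 and 10.7 and 11.8 in clone 2.5. Every knock-out library was below every wild type library, by 1.62-fold in CVP (log2 -0.70 ± 0.10) and 1.98-fold in FoP (-0.98 ± 0.10). At the level of whole genes, Cyp26a1 and Rarb thus stood on opposite sides of wild type in all 4 clones. Top2b overlaps Rarb on the opposite strand and was abundant (181 to 243 CPM), but shares only the end of its span with Rarb. The sources used here do not tell whether strand was used in counting, so reads from the shared stretch cannot be told apart.

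Rarg (chromosome 15, 102234938 to 102257517, minus strand, GRCm38, protein-coding), the main retinoic acid receptor of surface epithelia, was at 223 and 201 CPM in CVP wild type and 168 to 181 in knock-out. The FoP wild type libraries held 232 and 239 CPM, those of knock-out 190 to 206. The shift was small and of like size in both lines (log2 -0.28 ± 0.05 in CVP, -0.24 ± 0.05 in FoP), with no overlap of groups.

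**Figure D3:**
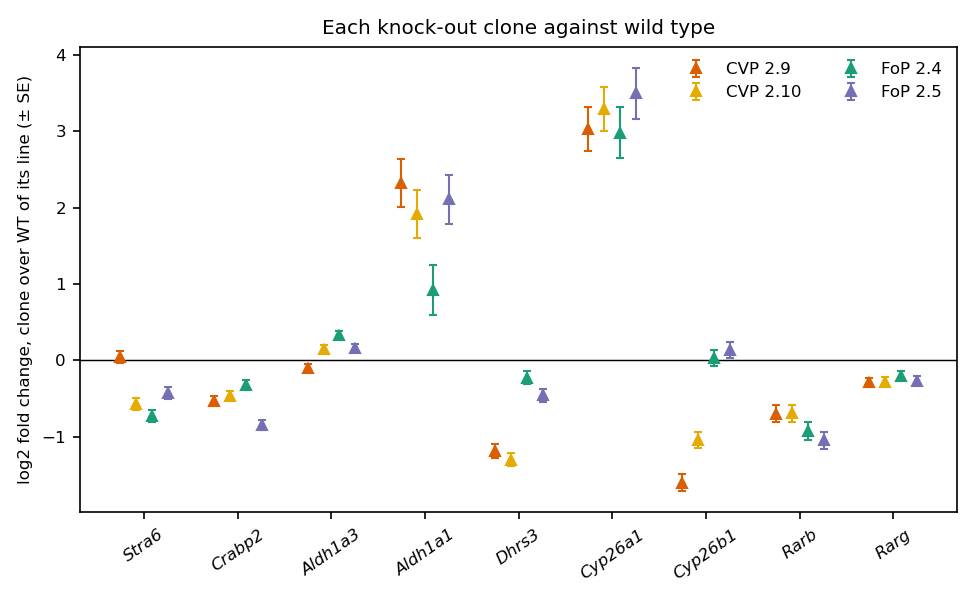
log2 fold change (± SE) of each clone over the wild type of its line; the clones of one line share their wild type libraries. Cyp26a1 lies between 2.98 and 3.50 in the 4 clones and Rarb between -1.05 and -0.70, while Stra6 in clone 2.9 (0.05) and Aldh1a3 in clone 2.9 (-0.10) stand apart from the other clones.

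The contrasts that follow did not choose the list and were tested with edgeR over all 17076 genes. The wild type comparison sets a FoP culture against a CVP culture, each in duplicate, so papilla and culture cannot be told apart. In it 1 of the 9 genes passed, beside 6.68% of all genes (3.77% higher in FoP, 2.91% lower). Dhrs3 was 1.56-fold lower in FoP (log2 -0.64 ± 0.11, adjusted p = 0.00839), with both FoP libraries below both CVP libraries, as groups that do not overlap were in 59.2% of all genes. It was lost without the first CVP (adjusted p = 0.0784), the first FoP (0.0732) or the second FoP wild type library (0.0778), and with duplicates summed (0.444). Cyp26a1 was at 0.497 ± 0.0164 CPM in FoP and 1.20 ± 0.0555 in CVP (SD, n = 2 for each), a log2 difference of -1.26 ± 0.35 that did not pass (adjusted p = 0.0528) and passed in 11 of 24 alternatives (adjusted p from 0.00829 to 0.609). The other 7 genes differed by at most 0.31 on the log2 scale with adjusted p from 0.157 to 0.977.

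Between the knock-out groups of the lines, 4 of the 9 genes passed, beside 24.4% of all genes (12.1% higher in FoP, 12.3% lower). Cyp26b1 was 2.58-fold higher in FoP (log2 1.37 ± 0.14, adjusted p = 0.000107) and Cyp26a1 2.25-fold lower (-1.17 ± 0.21, adjusted p = 0.00241), each with all 4 FoP libraries beyond all 4 CVP libraries, which held for 24.8% of all genes. Rarg was 1.15-fold higher in FoP, again with no overlap (0.20 ± 0.04, adjusted p = 0.00581). Dhrs3 was 1.20-fold higher (0.26 ± 0.08, adjusted p = 0.0318), with 3 of the 4 FoP libraries above all CVP libraries, and passed in 14 of 24 alternatives. With duplicates summed, so that each clone counted as 1 sample and 2 residual degrees of freedom remained, no gene passed (edgeR, 4 of 9 at an unadjusted p under 0.05, smallest adjusted p = 0.0903).

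The knock-out effect itself differed between the lines for 2 of the 8 genes other than Cyp26a1, beside 15.8% of all genes (7.28% higher, 8.49% lower). The interaction of line and genotype was 1.38 ± 0.23 on the log2 scale for Cyp26b1 (adjusted p = 0.00351), which was lower in all 4 CVP knock-out libraries and overlapped wild type in FoP. For Dhrs3 it was 0.91 ± 0.14 (adjusted p = 0.00225): the gene lay below wild type in both lines, further so in CVP. The other 6 had adjusted p from 0.194 to 0.880. Without clone 2.10, 4 of the 8 passed. Both calls were lost with duplicates summed (edgeR, 2 of 8 at an unadjusted p under 0.05, smallest adjusted p = 0.184).

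Sister clones of the same line were compared by the spread of their duplicates alone. Clone 2.10 differed from clone 2.9 in 3 of the 9 genes, beside 5.42% of all genes (2.89% higher, 2.54% lower): Stra6 was 1.53-fold lower (log2 -0.62 ± 0.08, adjusted p = 0.000287), Cyp26b1 1.47-fold higher (0.56 ± 0.11, adjusted p = 0.00822) and Aldh1a3 1.19-fold higher (0.25 ± 0.05, adjusted p = 0.0123), each in both duplicates. Clone 2.5 differed from clone 2.4 in 3 of the 9, beside 7.26% of all genes (3.53% higher, 3.72% lower): Crabp2 was 1.43-fold lower (-0.52 ± 0.06, adjusted p = 0.000111), Stra6 1.23-fold higher (0.30 ± 0.08, adjusted p = 0.0375) and Aldh1a1 2.28-fold higher (1.19 ± 0.30, adjusted p = 0.0465). Stra6 thus differed between the clones of each line. Without either duplicate of clone 2.9, the first comparison kept 1 call, that of Stra6. In the second, Stra6 passed in 11 of 19 alternatives (adjusted p from 2.11e-06 to 0.299) and Aldh1a1 in 10 of 19 (1.78e-07 to 0.226), and 1 call was left without the second library of clone 2.4, without either of clone 2.5 or without either FoP wild type library.

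A list of 66 other genes of vitamin A handling, retinoid receptors and known retinoic acid targets was tested in knock-out against wild type, and 40 had enough counts. In CVP 6 rose and 13 fell, 47.5% of the 40 beside 46.4% of all tested genes (23.5% higher, 22.9% lower). In FoP 3 rose and 8 fell, 27.5% beside 28.8% (13.5% higher, 15.3% lower). Both shares were near the background. The median log2 fold change of the 40 was -0.18 in CVP and -0.05 in FoP.

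Among 12 tested genes of retinol oxidation and reduction, 4 rose and 1 fell in CVP (41.7% called, beside 46.4% of all genes) and 2 rose and 2 fell in FoP (33.3%, beside 28.8%). Rdh10, the dehydrogenase known for the first step of retinoic acid synthesis, rose from 208 and 214 CPM in CVP wild type to 324 to 405 in knock-out (log2 0.82 ± 0.09, adjusted p = 1.39e-05) and from 201 and 195 CPM in FoP wild type to 314 to 366 (0.78 ± 0.09, adjusted p = 5.48e-05). Rdh10 and Dhrs3, which run between retinol and retinaldehyde in opposite directions, thus stood on opposite sides of wild type in both lines. This pair does not stand for the whole list, since the retinol dehydrogenase Dhrs9 fell in both lines (below). Dhrs4, a reductase of carbonyl compounds, rose in both, unlike the reductase Dhrs3 (0.85 ± 0.11 in CVP, 0.48 ± 0.11 in FoP). Rdh13 (0.47 ± 0.08) and the carotenoid-cleaving Bco2 (0.98 ± 0.34) rose in CVP. Rdh12 fell in FoP (-1.54 ± 0.45, adjusted p = 0.0239), where clone 2.4 was at 0.638 and 0.526 CPM, clone 2.5 at 2.00 and 2.15 and wild type at 3.65 and 4.06, so that its value was -0.88 without clone 2.4 and -2.72 without clone 2.5. Bco2 passed in 17 of 24 alternatives and Rdh12 in 20.

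The retinol dehydrogenase Dhrs9 was nearly absent from knock-out. The CVP wild type libraries held 18 and 42 counts and the 4 knock-out libraries 1 in all, a ratio of 111 after scaling (95% counting interval 19.1 to 4440). FoP wild type held 34 and 18 counts and all 4 knock-out libraries 0, so knock-out was at least 8.32-fold lower (taking 3 counts in each library as the floor). Both falls passed (edgeR adjusted p = 0.000376 and 0.000675), in all 23 alternatives in CVP and in 22 of 23 in FoP (adjusted p up to 0.0663). Intervals and floors cover counting error only.

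Of 7 tested genes of uptake and binding, 1 passed in CVP (14.3%, beside 46.4% of all genes). In FoP none passed with edgeR, beside 28.8% of all genes. There 1 had an unadjusted p under 0.05, and DESeq2 called 1 and limma voom 0. Of the breakdown list, the single gene Cyp26c1 had too few counts to test.

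Among 8 receptors and coregulators, 6 fell in CVP (75.0%, beside 46.4% of all genes called and 22.9% lower) and 3 in FoP (37.5%, beside 28.8% called and 15.3% lower), and none rose. The receptor partner Rxrb (-0.46 ± 0.07 in CVP, -0.25 ± 0.07 in FoP), the corepressor Ncor1 (-0.40 ± 0.05 and -0.24 ± 0.05) and the coactivator Ncoa2 (-0.36 ± 0.05 and -0.18 ± 0.05) fell in both lines. Rara (-0.23 ± 0.07), Rxra (-0.23 ± 0.05) and the coactivator Ncoa3 (-0.20 ± 0.06) fell in CVP. These shifts are 1.13-fold to 1.37-fold, small like that of Rarg. In FoP, Ncoa2 passed in 19 of 24 alternatives, Rxrb in 21 and Ncor1 in 22. In CVP these 3 passed in all 24, Rxra in 23, Ncoa3 in 21 and Rara in 20.

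Of 13 tested genes known to be induced by retinoic acid, 2 rose and 5 fell in CVP (53.8% called, beside 46.4% of all genes), and 1 rose and 3 fell in FoP (30.8%, beside 28.8%). The transglutaminase Tgm2 fell from 318 and 296 CPM to 75.4 to 109 in CVP (log2 -1.72 ± 0.14, adjusted p = 6.35e-06) and from 221 and 214 CPM to 128 to 155 in FoP (-0.59 ± 0.14, adjusted p = 0.0103). The antiproliferative gene Btg2 fell in both (-0.39 ± 0.05 and -0.42 ± 0.05), and Rai14, an actin-binding protein, rose in both (0.59 ± 0.05 and 0.45 ± 0.05). Nuclear receptor cofactor Nrip1 (-0.53 ± 0.05), Foxa1 (-0.54 ± 0.11) and Meis2 (-0.47 ± 0.09) fell and Meis1 (0.22 ± 0.08, past the threshold in 13 of 24 alternatives) rose in CVP. With duplicates summed, 12 of the 40 genes passed in CVP and 2 in FoP, and without the first FoP wild type library 6 passed in FoP. Of the genes named as changed in both lines, Btg2 passed in FoP in all 24 alternatives. Rdh10 and Rai14 passed there in 23, Dhrs4 in 22 and Tgm2 in 21.

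**Figure D4:**
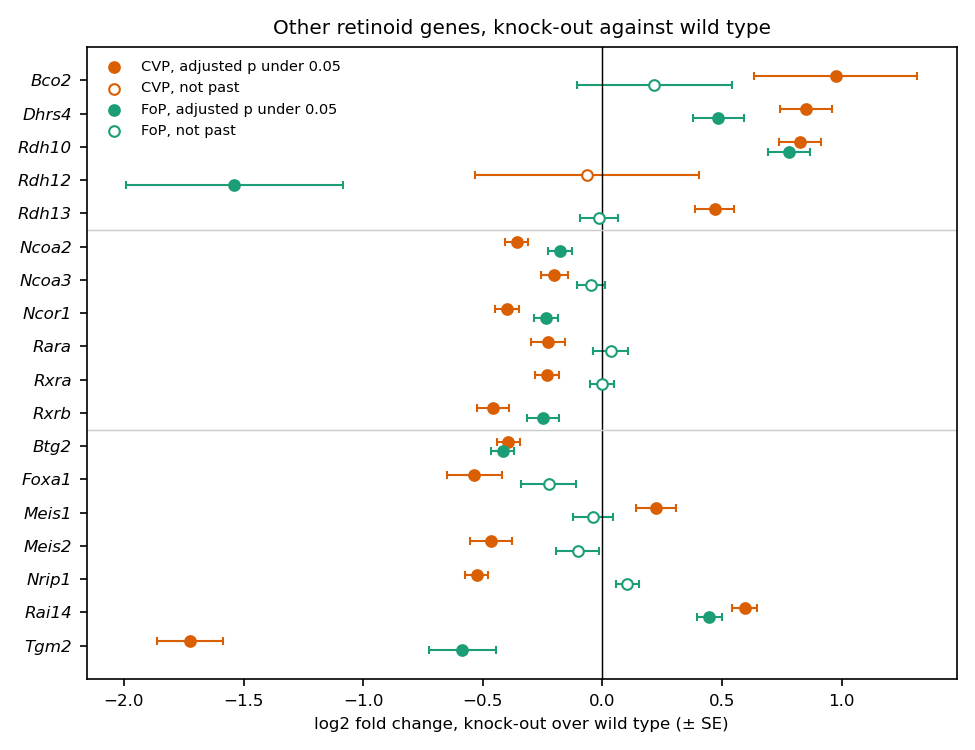
log2 fold change (± SE) of knock-out over wild type for listed genes past the test in at least 1 line and described in the text, in the order oxidation and reduction, receptors and coregulators, and retinoic acid-induced genes; filled points passed, open points did not. Dhrs9 is left out because it is near 0 counts in knock-out, and Tgm2 in CVP (-1.72) and Rdh12 in FoP (-1.54) lie farthest from 0.

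**Figure D5:**
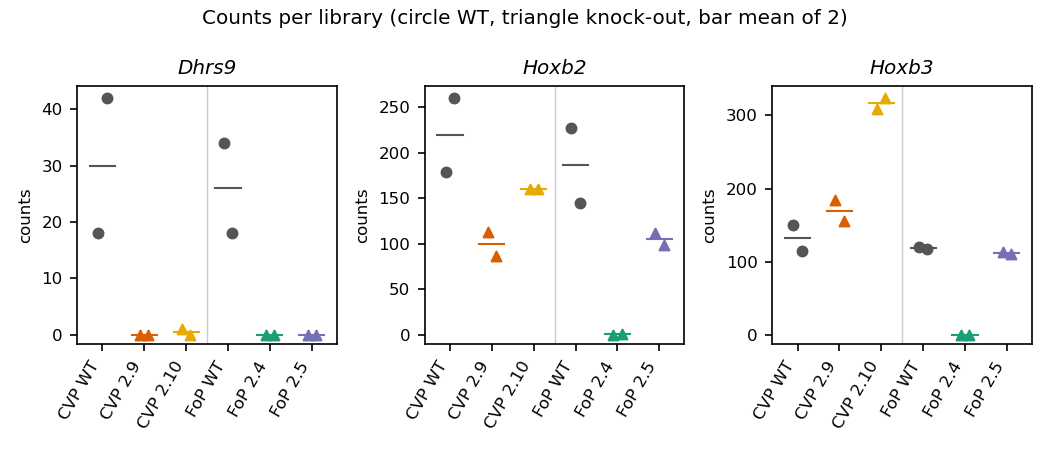
Counts in each library of 3 listed genes that were at or near 0 in some cultures; circles are wild type, triangles knock-out and short lines means of 2 libraries. Dhrs9 has at most 1 count in any knock-out library, and Hoxb2 and Hoxb3 hold at most 1 count in clone 2.4.

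Across the 12 libraries, genes whose log2 CPM was most like that of Cyp26a1 included Slc4a2 (Pearson r = 0.99), an anion exchanger, Sptlc1 (0.99), a subunit of the first enzyme of sphingolipid synthesis, Skiv2l (0.99), an RNA helicase, and Vps35l (0.99), a part of endosomal sorting. Within the 9 genes, Cyp26a1 ran with Aldh1a1 (r = 0.91) and against Rarg (-0.94), Crabp2 (-0.88) and Rarb (-0.85), whereas Aldh1a3 ran against Stra6 (-0.85). These correlations describe 12 libraries that share 2 lines, 6 cultures and 1 split by label, and they are not tests.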

How the data were processed

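Per the labels' protocols, poly(A) RNA was prepared with a Qiagen kit and TruSeq stranded mRNA libraries. The values used are the deposited raw counts per gene, made by the authors. Per the submitters' processing notes, STAR, featureCounts and the hg38 genome were used, although the counts carry mouse symbols; versions and the strand setting are not given in the sources used here. Columns were matched to samples by title. Totals were 59.3 to 73.6 M counts.

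The 9 genes, the other lists, the tests and the naming rules were chosen with earlier results of these data known. Genes were filtered with filterByExpr over 4 arms (line by label; 17076 tested), TMM-scaled and fitted in R 4.3.3 with edgeR 4.0.16, using its robust quasi-likelihood test. All p-values were adjusted by Benjamini-Hochberg over the 17076 genes, and those under 0.05 were called. Clone contrasts used a fit of 6 cultures. SE was approximated as the absolute log2 fold change divided by the square root of F. Other listed genes were named if they passed in either line, at most 8 per list by size, and the genes most like Cyp26a1 are the 5 highest correlations in log2 CPM (prior count 2). Values of 2 and 4 counts (20289 and 10030) outnumber those of 1 and 3 (20007 and 6626); where 1 fragment gave 2 counts, counting intervals are too narrow. Gene positions and exon lengths are from GENCODE M21, promoter windows from RefSeq. Values of 3 genes that these rules name are not reported here, though counts over the lists include them. The fit was tested on simulated data whose spread was that of duplicates within cultures. For the knock-out contrast no difference between sister clones was simulated, so calls that arise from clone differences could not show there. Alternatives were DESeq2 1.42.0 size factors and Wald test, no filter, a filter of 1 CPM in 4 libraries, limma 3.58.1 voom with culture as block, the duplicate number as block, counts divided by 2, duplicates summed, and each clone and library left out.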

Additional observations from a re-analysis of the deposited data

Results flagged for a closer look

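Cyp26b1 stood out because its knock-out effect differed between the lines: the interaction was 1.38 on the log2 scale (± 0.23 SE, edgeR adjusted p = 0.00351), with all 4 CVP knock-out libraries (6.83 to 11.1 CPM) below both wild type libraries and the FoP groups overlapping (19.0 to 23.6 CPM). It passed in 23 of 24 alternatives, with values from 1.13 to 1.69 and adjusted p from 3.05e-07 to 0.222.

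Dhrs3 stood out for the same reason, with an interaction of 0.906 (± 0.139 SE, edgeR adjusted p = 0.00225), which passed in 23 of 24 alternatives (0.80 to 1.02, adjusted p from 4.39e-08 to 0.184). Its CVP wild type level of 383 ± 31.4 CPM was above that of FoP wild type, 246 ± 5.70 (SD, n = 2 for each), while the knock-out levels were 162 ± 13.3 and 195 ± 22.3 (SD, n = 4 for each). For both genes the alternative that did not pass was the one with duplicates summed.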

How the results depend on the processing

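Cyp26a1 was higher in knock-out under all 24 alternatives in both lines (log2 2.98 to 3.50), and Rarb, Rarg, Crabp2 and Dhrs3 were lower in all. Summing duplicates left 12 of 19 calls of other listed genes in CVP, 2 of 11 in FoP, and 0 in the wild type comparison (2 at an unadjusted p under 0.05), between knock-out groups (4 unadjusted) and in the interaction (2 unadjusted), by edgeR. The wild type comparison gave 2 calls in place of 1 with no filter, the stricter filter, the DESeq2 Wald test, the replicate block, and without any 1 of the clones 2.9, 2.10, 2.4 and 2.5. The interaction gave 4 calls without clone 2.10. The duplicate number as a block left 1 call between clones 2.5 and 2.4. Over all tested genes, same-numbered libraries deviated together little (r from -0.0556 to 0.114 over 15 pairs of cultures, 1 of them over 0.1). The highest r were those of sister clones (0.114 for 2.9 and 2.10, 0.0502 for 2.4 and 2.5). Single genes can still split alike, as Cyp26a1 was higher in the first library of every clone. Whether the numbers pair the samples is therefore not settled. Leaving out 1 library gave 15 to 20 calls of other listed genes in CVP, 6 to 13 in FoP and 5 to 8 between clones 2.5 and 2.4. For the 9 genes it gave 0 to 2 calls between wild types (0 without the first CVP, the first FoP or the second FoP wild type library, with 3, 4 and 2 at an unadjusted p under 0.05 by edgeR), 3 to 4 between knock-out groups, 2 to 2 in the interaction, and 1 to 3 for each pair of clones. The cause of these changes was not tested, except that fewer samples entered.

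In knock-out against wild type, given without a test, Stra6 in CVP ranged from -0.57 to 0.05, Aldh1a3 in CVP from -0.10 to 0.15 and Cyp26b1 in FoP from -0.02 to 0.20. Among tested values, signs changed only in ones that did not pass. Between knock-out groups, Crabp2 went to -0.16 without clone 2.4, Stra6 to 0.24 without clone 2.9 and 0.046 without clone 2.4, and Aldh1a3 to 0.10 without clone 2.10 and 0.047 without clone 2.5; Crabp2 in the interaction went to 0.18 without clone 2.5. With 1 library left out, Cyp26b1 (-0.13 to 0.089), Rarb (-0.045 to 0.19) and Aldh1a1 (-0.79 to 0.43) between wild types, Stra6 (-0.23 to 0.0037) and Aldh1a3 (-0.080 to 0.015) between knock-out groups, Rarg (-0.028 to 0.12) and Crabp2 (-0.15 to 0.040) in the interaction, and Cyp26a1 (-0.086 to 0.70), Rarb (-0.13 to 0.15) and Rarg (-0.043 to 0.059) between clones 2.10 and 2.9 changed sign. For the clone contrasts the voom alternative has no block, since culture is already in that fit. Depth limits Dhrs9, whose knock-out groups hold at most 1 count in all.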

Other observations

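Clone 2.4 held at most 1 count of 2 neighbouring homeobox genes that retinoic acid is known to induce. Hoxb3 (chromosome 11, 96323326 to 96347930, plus strand, GRCm38) held 0 counts in both libraries of clone 2.4, 113 and 111 in clone 2.5 and 120 and 118 in FoP wild type, at least 40.4-fold lower than in clone 2.5 (floor of 3 counts in each library) (edgeR adjusted p = 3.65e-07, from 8.05e-40 to 0.000135 over 19 alternatives). Hoxb2 (chromosome 11, 96350525 to 96354012, plus strand, GRCm38) held 0 and 1 counts in clone 2.4, 112 and 99 in clone 2.5 and 227 and 145 in FoP wild type, a ratio of clone 2.5 to clone 2.4 of 228 (95% counting interval 40.5 to 9058; adjusted p = 1.00e-06, from 1.75e-34 to 0.00120 over 19 alternatives). All CVP libraries held both (86 to 260 counts of Hoxb2, 114 to 324 of Hoxb3). The antisense gene Hoxb3os overlaps both, and this pair was chosen after its values were seen.

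Of the 40 tested listed retinoid genes, 8 were higher in clone 2.5 than in clone 2.4 and the other 32 did not pass (20.0% called, beside 7.26% of all genes). They include Hoxb2 and Hoxb3, the fatty acid and retinoic acid binding protein Fabp5, at 7.43 and 9.01 CPM in clone 2.4 and 13.2 and 17.4 in clone 2.5 (log2 0.89 ± 0.19, adjusted p = 0.0138), and Rdh12 (1.83 ± 0.25, adjusted p = 0.000390). Leaving out either library of clone 2.4 left 5 of the 8 calls.

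A DR5 in the promoter window, a list made after results were seen, was present in 28 genes, of which 17 were in the count table and 8 were tested, Cyp26a1 and Rarb among them. Of the other 6, 4 fell in CVP knock-out (Blvrb, Ppbp, Prokr2 and Prss27, where 22.9% of all genes fell) and 1 in FoP (Prokr2, 15.3%), and the rest did not pass. With so few genes, listed after results were seen, nothing is read from these counts. In FoP, log2 values were 0.15 ± 0.28 for Ppbp, 0.15 ± 0.29 for Prss27 and -0.17 ± 0.09 for Blvrb. Prokr2 was near the floor in CVP, at 0.299 ± 0.00882 CPM in wild type and 0.0230 ± 0.0296 in knock-out (SD, n = 2 and 4). Prokr2 in FoP was at 0.673 ± 0.376 CPM in wild type and 0.159 ± 0.0746 in knock-out (SD, n = 2 and 4; edgeR adjusted p = 0.0362) and passed in 12 of 23 alternatives (adjusted p from 0.0140 to 0.343). Prss27, an epithelial serine protease, fell from 44.3 ± 3.22 to 9.54 ± 2.81 CPM in CVP (log2 -2.22 ± 0.28, adjusted p = 0.000198) and Blvrb, a biliverdin reductase, from 42.8 ± 2.41 to 19.7 ± 2.45 CPM (-1.12 ± 0.09, adjusted p = 2.04e-06; SD, n = 2 and 4 for both).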
